A study of Mus musculus with 2 samples.

Results

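Adipocyte progenitor markers are surface and secreted proteins by which the precursor cells and fibroblasts of fat are recognised and sorted. The 9 genes were Pdgfra, Cd34, Dpp4, Pi16, Ly6a, Icam1, F3, Clec11a and Fap. They were listed by name as known markers and not by a cut on measured values, although earlier results of these data were known when the list was made. A probe set carrying that symbol alone was found for 8 of the 9, each with 1 probe set, among 19938 genes named in this way on the array. No probe set carried Ly6a alone in the annotation used, and it was not analysed here. RNA of white adipose tissue was hybridised to Affymetrix Mouse Gene 1.0 ST arrays, which probe a transcript along its length, with 1 array labelled as Oma1-deficient (Oma1_KO) and 1 array labelled as control (Oma1_WT). Mice of both labels were 24 weeks old and had received a high-fat diet for 20 weeks. The Oma1 protein is a stress-activated peptidase in the inner membrane of mitochondria. The labels state no allele, strain, sex or fat depot, and do not say whether RNA of several mice was pooled.

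New fat cells arise from progenitors that lie around the vessels of fat and in the connective tissue between its lobules. In mice, cells with the receptor Pdgfra on their surface include most adipocyte progenitors. Within them, cells with Dpp4 and Pi16 lie in the connective tissue layer and can give rise to Icam1-positive committed preadipocytes, and a further population with F3 and Clec11a has been described, in part as cells that restrain fat cell formation. Several markers are shared with other cells: Cd34 with endothelium, Icam1 with endothelium and leukocytes, and Dpp4 with T cells and mesothelium, the sheet that covers visceral fat.

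No marker differed by 1.5-fold between the genotypes. Of the 8, 4 read higher and 4 lower in the Oma1-deficient array, and their median difference was 0.03 on the scale of log2(intensity + 1), Oma1_KO minus Oma1_WT. The count past 1.5-fold was 0 of 8, against 2.97% of 11399 genes: 140 (1.23%) were past that size on the higher side and 198 (1.74%) on the lower side. These are the genes whose mean over both arrays reached 83.0, the median intensity of all probe sets. All 8 markers were above this level on each array. Across the 11399 genes the median difference was -0.06, with the middle 90% between -0.43 and 0.32, and 36.6% of genes were higher and 62.3% lower at any size, against which the counts of higher and lower genes given here are to be read. The split of 1.5-fold calls depended on the scaling, since 41.4% of them were higher as deposited, 53.5% after quantile normalisation and 51.7% after loess.

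Each genotype had a single array, so the differences have no replicate check and were not tested, and how far animals of the same genotype vary is unknown here. A technical yardstick came from 545 genes with exactly 2 probe sets, measured on the same pair of RNAs. It was the SD, within a gene, of the Oma1_KO minus Oma1_WT difference of a single probe set, 0.17 on the log2 scale. Differences between the arrays that move both probe sets of a gene alike do not enter it. The SD came from the values as deposited and was not recomputed for other scalings. By more than this SD, 3 of the 8 markers were higher and 2 lower, where 13.5% of the 11399 genes were higher and 27.5% lower by as much, 41.0% in all.

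**Figure D1:**
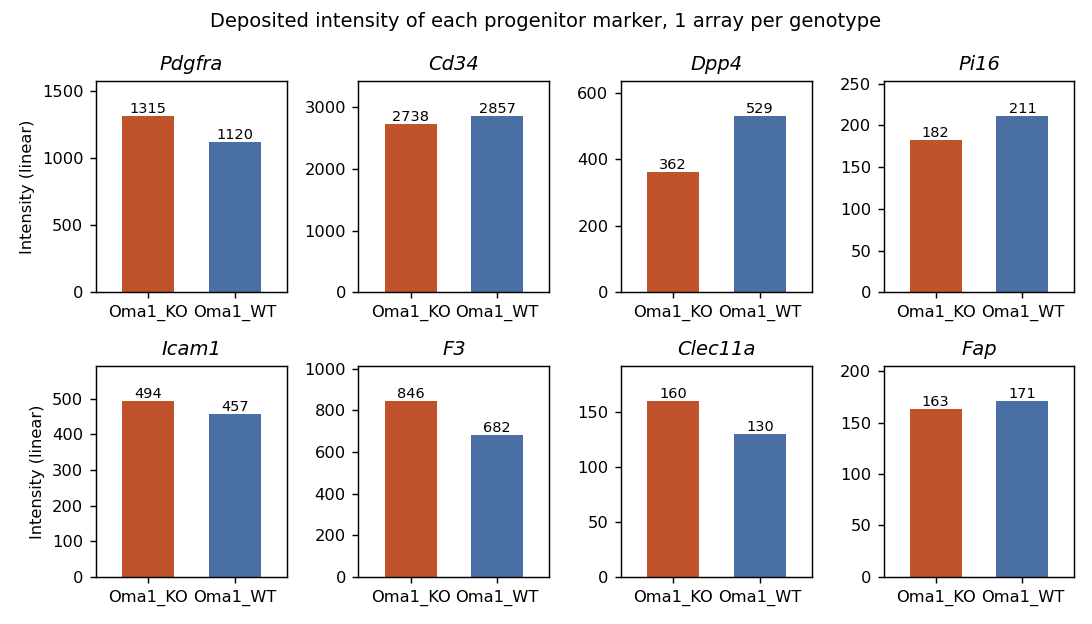
Deposited intensity (linear scale, each panel with its own axis from 0) of the 8 markers in the Oma1_KO and the Oma1_WT array, 1 bar per array with its value above it. Dpp4 has the widest relative gap, 362 in Oma1_KO against 529 in Oma1_WT; bars have no error since each is 1 array.

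The broad markers went different ways. Pdgfra, the alpha receptor for platelet-derived growth factor, read 1315 in Oma1_KO and 1120 in Oma1_WT fat, a difference of 0.23, or 1.17-fold. A higher difference was found for 1024 of the 11399 genes (8.98%). Cd34, a sialomucin of progenitor and endothelial surfaces, read 2738 in Oma1_KO and 2857 in Oma1_WT fat, a difference of -0.06. Cd34 therefore sat at the median of all genes and within the technical SD, while Pdgfra lay beyond that SD.

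Around Pdgfra, the related receptor Pdgfrb, found on mural cells as well, read 1753 in Oma1_KO and 1586 in Oma1_WT fat (0.14). The ligand genes Pdgfa, Pdgfb and Pdgfd differed by -0.02, 0.01 and 0.00. Pdgfc, a ligand that signals through the alpha receptor, was the exception at 314 in Oma1_KO and 408 in Oma1_WT fat (-0.38). Of the relatives and partners of Cd34, the sialomucin Podxl differed by -0.14, the signalling adaptor Crkl by 0.13 and the endothelial sialomucin Emcn by -0.34, at 1050 in Oma1_KO and 1328 in Oma1_WT fat. Podxl2 was below the intensity filter.

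The 2 markers of the Dpp4-positive progenitors were both lower. Dpp4, a cell surface peptidase that removes dipeptides from peptide hormones and chemokines, read 362 in Oma1_KO and 529 in Oma1_WT fat, a difference of -0.55, or 0.685-fold. It had the lowest difference of the 8 markers, and 250 of the 11399 genes (2.19%) had a still lower one. Pi16, a protein of the cysteine-rich secretory family, read 182 in Oma1_KO and 211 in Oma1_WT fat, a difference of -0.21, and 20.8% of genes had a lower one. Its difference came within the technical SD of the deposited values after quantile normalisation, at -0.15, and after loess. In bulk tissue, fewer cells of a type and less RNA per cell cannot be told apart.

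Other genes of the Dpp4-positive progenitors were uneven. Of 11 measured, 5 were higher and 5 lower, 1 had equal values, and the median difference was 0.00, or -0.11 over the 10 past the filter. The 5 lower genes were all beyond the technical SD, and 1 of them passed 1.5-fold. Limch1, an actin-associated protein, read 113 in Oma1_KO and 179 in Oma1_WT fat (-0.66). Sema3c, a secreted semaphorin, read 931 in Oma1_KO and 1340 in Oma1_WT fat (-0.52). Cd55, which protects cells from complement, read 292 in Oma1_KO and 408 in Oma1_WT fat (-0.48). The growth factor gene Bmp7 differed by -0.38 and the annexin gene Anxa3, named after its value was seen, by -0.22. The other 6 lay between 0.00 and 0.22, Wnt2 being the 1 gene below the filter. The summed intensity of the 11 genes was 3340 in Oma1_KO and 4106 in Oma1_WT fat.

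Mesothelial markers were lower on the same array. Of 11 measured, 10 were lower and 3 passed 1.5-fold, with a median of -0.51 and a summed intensity of 2205 in Oma1_KO and 3133 in Oma1_WT fat. Upk3b, a uroplakin of mesothelium, read 455 in Oma1_KO and 773 in Oma1_WT fat (-0.76), and Lrrn4 read 238 in Oma1_KO and 395 in Oma1_WT fat (-0.73). Krt19 and Krt8, keratins of mesothelium, differed by -0.73 and -0.58, while the mesothelial transcription factor Wt1, named after its value was seen, differed by 0.26. Muc16 was below the filter. T and NK cells are among the other cells that may carry Dpp4. Their markers were dim, with 4 of 8 below the filter, 6 lower and 2 higher. The median was -0.12, with sums of 666 in Oma1_KO and 734 in Oma1_WT fat. Cd3e, a subunit of the T cell receptor complex, differed by -0.22, Il2rb by -0.15, Cd3g by -0.12 and Cd8a by -0.10. The part of these cells in the Dpp4 value was not tested.

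Fap, a surface peptidase of activated fibroblasts and the closest relative of Dpp4, read 163 in Oma1_KO and 171 in Oma1_WT fat, a difference of -0.07. Fap thus stayed near the median of all genes, 0.48 above Dpp4 on the log2 scale of differences. The other family members past the filter, the intracellular peptidases Dpp8, Dpp9 and Prep and the lysosomal Dpp7, differed by -0.04, -0.04, -0.01 and 0.09. Dpp6 and Dpp10, which lack peptidase activity and are known from neurons, were below the filter. None of the 6 relatives other than Fap differed by more than the technical SD.

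**Figure D2:**
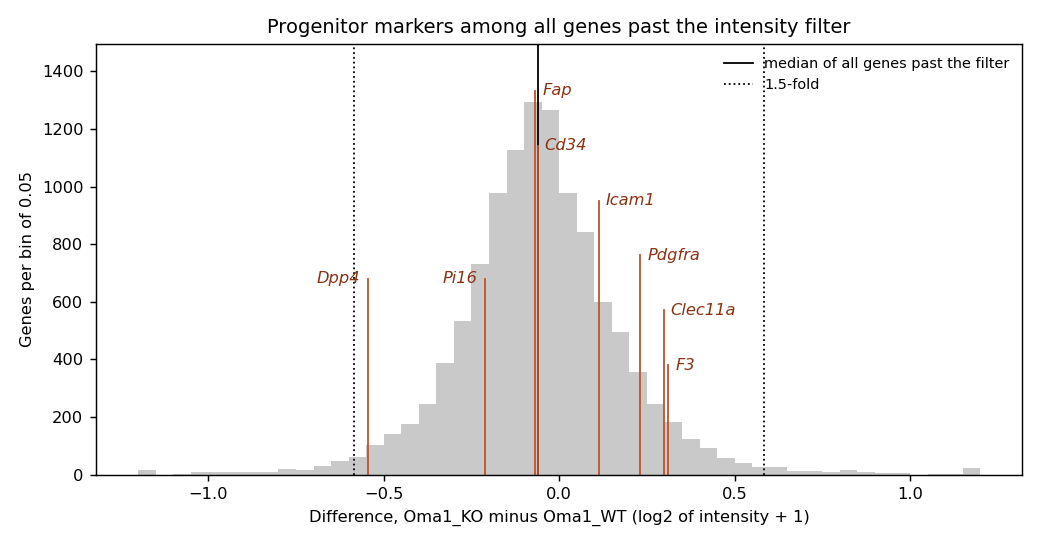
Histogram of the difference Oma1_KO minus Oma1_WT (log2 of intensity + 1) over the 11399 genes past the filter, with values beyond the axis counted in the end bins. Vertical red lines mark the 8 markers, from Dpp4 at -0.55 to F3 at 0.31, all inside the dotted 1.5-fold lines; line heights carry no value.

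Icam1, the marker of committed preadipocytes and a ligand of leukocyte integrins, read 494 in Oma1_KO and 457 in Oma1_WT fat, a difference of 0.11. This was within the technical SD as deposited and slightly past that same SD after quantile normalisation and loess, at up to 0.18. Vcam1, a related adhesion molecule, differed by 0.24 and the endothelial Icam2 by -0.26. The genes of its integrin receptors, Itgal, Itgam, Itgax and Itgb2, differed by 0.02, -0.02, -0.03 and 0.05. Icam4 and Icam5 were below the filter.

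Of 12 other genes of the committed state, 5 were higher and 7 lower, with a median of -0.04, sums of 47748 in Oma1_KO and 48441 in Oma1_WT fat and 1 gene past 1.5-fold. Agt, which encodes angiotensinogen, read 816 in Oma1_KO and 1247 in Oma1_WT fat (-0.61). Cxcl14, a chemokine, read 682 in Oma1_KO and 500 in Oma1_WT fat (0.45). Apoe, an apolipoprotein that macrophages also make, differed by 0.34, and Dlk1, a transmembrane inhibitor of fat cell formation, read 179 in Oma1_KO and 148 in Oma1_WT fat (0.27). The list has genes that mature adipocytes also express strongly, such as Pparg, Fabp4, Cd36 and Lpl, so it does not measure committed progenitors alone.

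The pair of markers of the F3-positive population were both higher and by nearly the same amount. F3, tissue factor, the surface receptor that starts coagulation, read 846 in Oma1_KO and 682 in Oma1_WT fat, a difference of 0.31, or 1.24-fold, and 607 of the 11399 genes (5.33%) had a higher one. Clec11a, a secreted lectin-like growth factor also called osteolectin, read 160 in Oma1_KO and 130 in Oma1_WT fat, a difference of 0.30, or 1.23-fold, and 667 genes (5.85%) had a higher one. Rounding of the deposited values to whole numbers leaves the Clec11a difference between 0.29 and 0.31. The differences of F3 and Dpp4 were 0.86 apart and those of Clec11a and Dpp4 0.84 apart, gaps that a scaling common to an array cannot change. F3 and Dpp4 were the highest and lowest of the markers, so their gap is the range. Pdgfra and Icam1 also lay 0.78 and 0.66 above Dpp4, while F3 lay 0.52 above Pi16.

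Other genes of the F3-positive population lay near the background of all genes. Of 11 measured, 3 were higher and 7 lower, 1 had equal values and none passed 1.5-fold, with a median of -0.03 and sums of 9752 in Oma1_KO and 9436 in Oma1_WT fat. The order of these sums rested on the bright gene Bgn, left out after seeing the data, without which they were 4215 in Oma1_KO and 4242 in Oma1_WT fat. Mgp, an inhibitor of calcification, differed by 0.21, while the matrix protein Cilp differed by -0.29, Igfbp3, which binds insulin-like growth factors, by -0.25 and Vit by -0.11. Rspo2 and Epha3 were below the filter. For the partners of F3, the clotting factors F7 and F10 differed by 0.03 and 0.06, the inhibitors Tfpi and Tfpi2 by -0.06 and 0.17, and the thrombin receptor F2r by -0.28. The receptor of osteolectin, an integrin formed by Itga11 and Itgb1, had differences of 0.01 and 0.00.

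Icam1 and F3 are both textbook targets of the inflammatory factor NF-kappaB, and Dpp4, picked by its value, marked the low end of the range. For these reasons the 250 bases before their annotated starts are shown, from RefSeq on GRCm38.p6, 5′ to 3′ on the strand of the gene. An entry existed for 7 of the 9 genes. Capitals mark matches, on either strand, to GGNNNTTCC (a form of the NF-kappaB site), TGANTCA (the AP-1 site), GGGCGG (the GC box), TATAAA (the TATA box) and CCAAT, none of which overlap here.
Icam1, chr9:21015690-21015939, plus strand: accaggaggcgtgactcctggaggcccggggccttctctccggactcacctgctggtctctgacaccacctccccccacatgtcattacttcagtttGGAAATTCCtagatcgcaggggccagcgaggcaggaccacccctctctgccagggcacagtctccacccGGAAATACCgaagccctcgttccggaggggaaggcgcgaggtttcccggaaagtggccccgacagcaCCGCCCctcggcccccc
F3, chr3:121723287-121723536, plus strand: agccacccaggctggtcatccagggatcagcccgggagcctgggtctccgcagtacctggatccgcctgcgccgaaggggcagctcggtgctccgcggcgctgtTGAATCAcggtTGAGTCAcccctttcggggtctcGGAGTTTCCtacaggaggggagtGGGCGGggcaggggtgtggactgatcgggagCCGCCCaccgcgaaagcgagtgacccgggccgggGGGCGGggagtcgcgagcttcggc
Dpp4, chr2:62412232-62412481, minus strand: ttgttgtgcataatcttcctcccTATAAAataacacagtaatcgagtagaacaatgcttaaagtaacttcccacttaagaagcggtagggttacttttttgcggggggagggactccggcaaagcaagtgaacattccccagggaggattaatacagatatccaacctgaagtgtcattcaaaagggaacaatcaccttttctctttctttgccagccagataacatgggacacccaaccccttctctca

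The Icam1 window held 2 matches to the NF-kappaB form, the first at 153 bases before the start, and the F3 window held 1, together with 2 AP-1 matches and 3 GC boxes. The windows of Pdgfra, Cd34, Pi16 and Clec11a, not shown, held no match to the NF-kappaB form. Icam1 and F3, with the form, differed by 0.11 and 0.31. Without it, Pdgfra and Clec11a differed by 0.23 and 0.30, and Cd34, Pi16 and Dpp4 by -0.06, -0.21 and -0.55. Among all 32851 windows of this length, 15.7% held the NF-kappaB form, 6.75% the AP-1 site, 32.7% the GC box, 12.4% the TATA box and 33.8% CCAAT. The Dpp4 window held the TATAAA letters once, 227 bases before the start, and no match to the other 4. These are matches of letters and not measured sites. Of 10 other NF-kappaB target genes, 8 were higher and 2 lower, none past 1.5-fold, with a median of 0.13 and sums of 3368 in Oma1_KO and 2886 in Oma1_WT fat. The chemokine Ccl2 read 884 in Oma1_KO and 646 in Oma1_WT fat (0.45), Tnf 139 in Oma1_KO and 106 in Oma1_WT fat (0.39), and Cxcl1 differed by 0.37. Il1b, 1 of the 2 lower genes, was below the filter, at 43 in Oma1_KO and 56 in Oma1_WT fat (-0.37). Vcam1 (0.24), given above beside Icam1, is among the 10. The part of NF-kappaB, or of any cell type, in these values was not tested.

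Broad progenitor genes outside the 8 markers also lay on both sides. Of 19 measured, 11 were higher and 7 lower, 1 had equal values and none passed 1.5-fold, with a median of 0.10 and sums of 41880 in Oma1_KO and 39430 in Oma1_WT fat. Prrx1, a mesenchymal homeobox factor, read 2227 in Oma1_KO and 1667 in Oma1_WT fat (0.42), and Lum, a matrix proteoglycan, 1947 in Oma1_KO and 1512 in Oma1_WT fat (0.36). On the lower side, Cd24a, a surface protein used to sort early progenitors, read 382 in Oma1_KO and 511 in Oma1_WT fat (-0.42), and Zfp423, a zinc finger factor of preadipocytes, 455 in Oma1_KO and 598 in Oma1_WT fat (-0.39).

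Fibroblast matrix genes had a median of -0.04, with 5 of 12 higher, 7 lower, none past 1.5-fold, and sums of 19561 in Oma1_KO and 19704 in Oma1_WT fat. Timp1, an inhibitor of matrix proteases, read 686 in Oma1_KO and 482 in Oma1_WT fat (0.51), and Ccn2, a connective tissue growth factor, 757 in Oma1_KO and 541 in Oma1_WT fat (0.48). Col3a1, a fibrillar collagen, differed by -0.38 and Tnc, tenascin C, by -0.34.

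**Figure D3:**
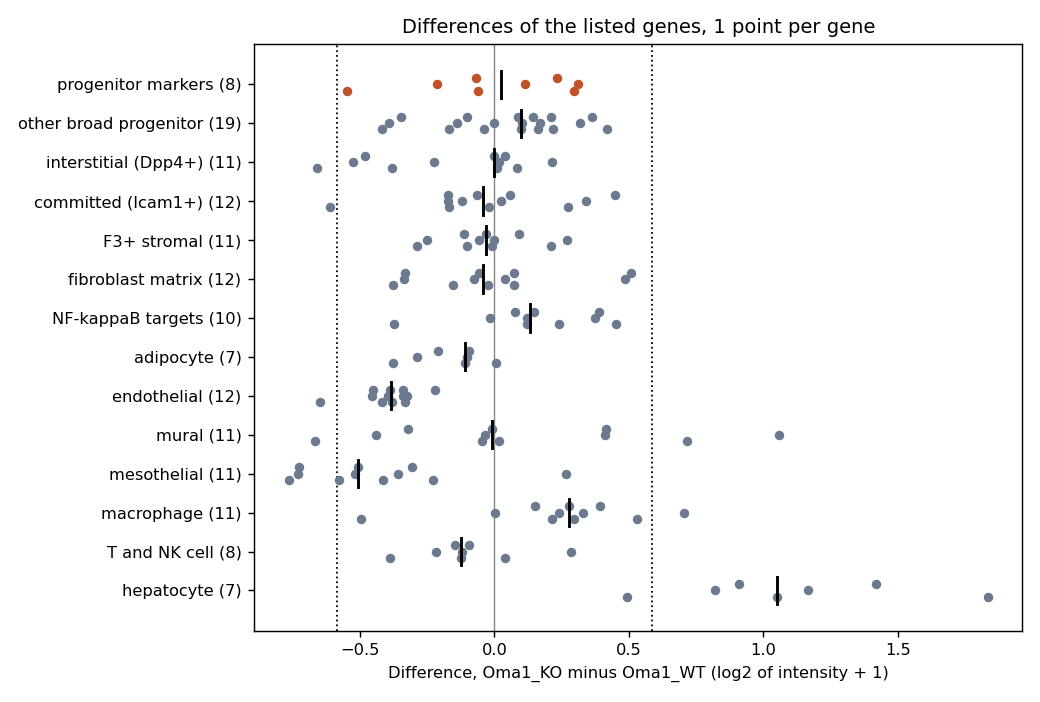
Difference Oma1_KO minus Oma1_WT (log2 of intensity + 1) of each gene in 14 lists, 1 point per gene with a small vertical offset for legibility, black bars for list medians and dotted lines at 1.5-fold. The numbers of genes measured are in brackets; the progenitor markers straddle 0 (median 0.03), while all 12 endothelial genes lie below it and all 7 hepatocyte genes above it.

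Markers of other cell types that carry these markers, or adjoin these cells, were read on the same arrays. All 12 endothelial markers were lower, with a median of -0.38, 1 past 1.5-fold and sums of 10883 in Oma1_KO and 14123 in Oma1_WT fat, among them Robo4 (-0.65), Gpihbp1 (-0.46), Egfl7 (-0.45) and Kdr (-0.42). Cd34, which endothelium shares, was 0.32 above that median, and none of the 12 lay as high as Cd34. Of 11 macrophage markers, 10 were higher and 1 lower, with a median of 0.28, 1 past 1.5-fold and sums of 40474 in Oma1_KO and 34232 in Oma1_WT fat, Fcgr1 differing by 0.71, Trem2 by 0.53, Mertk by -0.50 and C1qa by 0.39. Mural cell markers were split, with 5 higher and 6 lower, a median of -0.01 and sums of 9691 in Oma1_KO and 10797 in Oma1_WT fat. Cnn1 (1.06), Cspg4 (0.72) and Mcam (-0.67) passed 1.5-fold, and Abcc9 differed by -0.44. Without Mcam the mural sums were 7505 in Oma1_KO and 7323 in Oma1_WT fat, the opposite order, a choice also made after seeing the data.

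Adipocyte markers were bright on both arrays, none under 5189, and 6 of 7 were lower, none past 1.5-fold, with a median of -0.11 and sums of 44588 in Oma1_KO and 50211 in Oma1_WT fat. Adipoq, which encodes adiponectin, differed by -0.38, Pnpla2 by -0.29, Cidec by -0.21 and Plin1 by -0.11. Hepatocyte markers were all higher, 6 of 7 past 1.5-fold, with a median of 1.05 and sums of 8064 in Oma1_KO and 3384 in Oma1_WT fat, led by Apoa1 (1.83), Alb (1.42), Apob (1.17) and Apoa2 (1.05). The part of any of these cells in the progenitor values was not tested. The Oma1 probe set itself read 155 in the Oma1_KO and 187 in the Oma1_WT array (-0.27). Since the labels do not name the disrupted exons, it cannot be told whether this probe set should detect the deficiency.

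**Figure D4:**
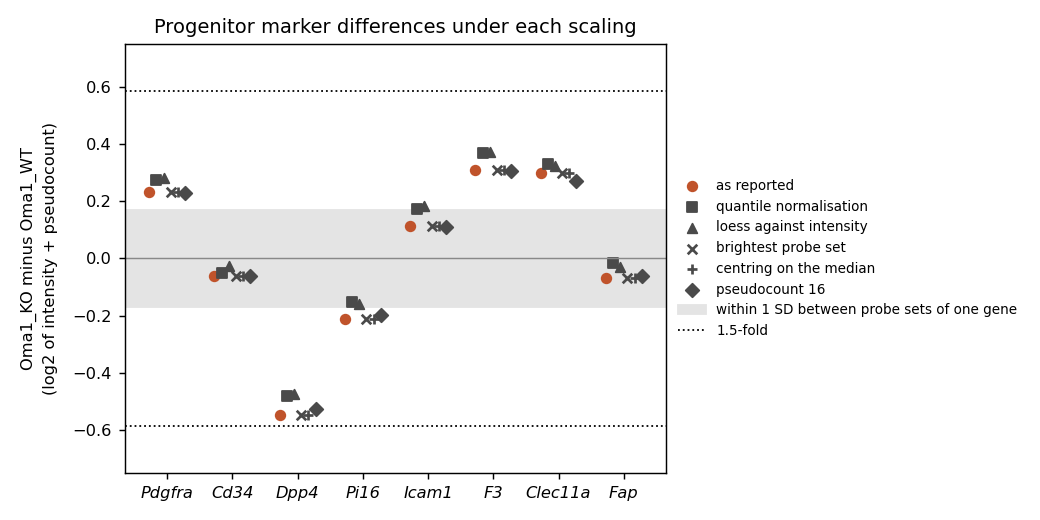
Difference Oma1_KO minus Oma1_WT (log2 scale) of each marker as deposited (red circles) and under 5 other settings (grey symbols), with the grey band at 1 technical SD of 0.17 and dotted lines at 1.5-fold. Each marker keeps its side of 0; Dpp4 stays between -0.55 and -0.48, and F3 between 0.30 and 0.37.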

How the data were processed

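Per the labels' protocols, Trizol was used to extract total RNA, and biotin to label it for Affymetrix arrays. The deposited values are intensities, 1 for each probe set on each array, linear and rounded to whole numbers. For the software, background correction, probe summary and scaling, the sources used here name nothing. Both arrays had a median of 83 over 35512 probe sets. GEO's platform annotation gave 1 symbol to 21789 probe sets, several to 1621 and none to 12102; only the first kind was used. Values were put on the scale log2(intensity + 1), which understates changes of dim genes, and probe sets of a gene were averaged. Differences were described by a fixed 1.5-fold size. With 2 arrays there is no pattern across samples, so no genes of like pattern were sought. Named were all markers, their partners and families, up to 4 genes per list with the largest absolute difference past the filter, and Oma1; Anxa3, Wt1 and genes named for being below the filter or shared between cell types were added after their values were seen. The members and lists were chosen with earlier results of these data known. The arithmetic was checked on simulated data with added shifts larger than those of the markers, which says nothing on small differences or on variation between animals. Alternatives were quantile normalisation, loess (span 0.3), centring, the brightest probe set, a pseudocount of 16 and other filters. Python 3.11.15, numpy 2.4.6, pandas 2.3.3, statsmodels 0.14.6 and matplotlib 3.10.9 were used.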

Additional observations from a re-analysis of the deposited data

How the results depend on the processing

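No paired analysis was possible because each genotype had 1 array, and no array could be left out. The count of markers past 1.5-fold was 0 under all of them, and each of the 8 markers kept its sign under quantile normalisation, loess, centring, the brightest probe set and a pseudocount of 16; centring and the brightest probe set altered no marker value. The marker median of 0.03 lay between 0.02 and 0.11, the last with the filter at the upper quartile, which left out Pi16, Clec11a and Fap. Quantile normalisation and loess moved the median of all genes by 0.05. The 140 genes at least 1.5-fold higher became 219 with no filter and 52 at the upper quartile, where the 198 lower ones became 81, as other numbers of genes were counted. With that filter the 3 remaining Dpp4-positive progenitor genes had a median of -0.48, against 0.00 over all 11, and the 3 remaining interferon-induced genes one of -0.56, against -0.15 over all 9.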

Other observations

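Ly6a encodes the surface protein Sca-1, which interferon is known to induce, and no value for it is reported. Of 7 measured relatives in the Ly6 family, 4 were below the filter, and those past it were Ly6e, at 5909 in Oma1_KO and 6399 in Oma1_WT fat (-0.11), Ly6d at 125 in Oma1_KO and 133 in Oma1_WT fat (-0.09), and Ly6k at 110 in Oma1_KO and 79 in Oma1_WT fat (0.47), which passed only through the Oma1_KO array. Ly6 genes have close copies that may share probe signal, so their identity is uncertain. Interferon-induced genes were lower in 9 of 9 measured, where 62.3% of all genes past the filter were lower, with a median of -0.15, 4 beyond the technical SD of 0.17 and 2 past 1.5-fold. Gbp4, a guanylate-binding protein, read 236 in Oma1_KO and 729 in Oma1_WT fat (-1.62), Gbp3 157 in Oma1_KO and 250 in Oma1_WT fat (-0.67), Ifit3 341 in Oma1_KO and 502 in Oma1_WT fat (-0.56), and Ifit1 123 in Oma1_KO and 156 in Oma1_WT fat (-0.34). The other 5 were within that SD.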
